A study of Rattus norvegicus with 12 samples.

Results

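The vascular endothelial growth factor (VEGF) and angiopoietin genes studied here were 10 genes, 6 ligands (Vegfa, Vegfb, Vegfc, Pgf, Angpt1 and Angpt2) and 4 receptors (Flt1, Kdr, Flt4 and Tek), out of 22979 genes tested. They are listed by symbol, with no threshold on a measured value. Each was read by the probe with the highest mean signal over the arrays, and all 19 probes that carry one of the symbols are reported beside it. RNA came from rat calvaria, the flat bone of the skull vault, and was hybridised to 12 single-colour arrays. The samples were taken 6 h after surgery from rats 10 weeks old. The laser group (4 arrays) had a rectangle of 8 by 3 mm cut into the bone by an Er:YAG laser, which emits infrared light that water absorbs. The bur group (4 arrays) had such a rectangle cut by a rotating bur. The control group (4 arrays) had the periosteum removed and the bone left uncut. The labels do not say in words how the periosteum was handled in the cut groups. No strain, sex or animal number is given, and the 4 samples of a group are not stated to be separate animals. The p-values therefore measure only how these samples spread, which may be technical.

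VEGF ligands are secreted dimers that act on receptor tyrosine kinases of endothelial cells. Vegfa binds both Flt1 and Kdr, whereas Vegfb and Pgf bind Flt1, and Vegfc binds Flt4, the receptor of lymphatic endothelium, and also Kdr. Kdr carries most of the mitogenic and permeability signal in blood vessels, and Flt1 binds ligand tightly but signals weakly, in part as a decoy. Angpt1 activates the endothelial receptor Tek and keeps vessels quiescent, while Angpt2, released by endothelial cells, competes with it and accompanies vessel remodelling. In bone, Vegfa is made by osteoblast-lineage cells, among others, and couples vessel ingrowth to bone formation and repair.

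Of the genes with several probes, all 5 had probes that passed and probes that did not in laser against control, and 4 had both in bur against control. The first 30 of the 60 bases of these probes are shown, here or where the gene is described, so that the transcript regions can be told apart. No part of them is marked. Vegfa was read by 3 probes, which start at bases 3407, 1342 and 1538 of their transcripts. In the order shown they lie at chr9:10535933-10535992, chr9:10528551-10528610 and chr9:10531934-10531993 on the plus strand of RGSCv3.4, the build of the array design. The A_64_P099886 and A_44_P1164111 probes were designed to transcript variant 1, and A_64_P099891 to variant 3.
Vegfa A_64_P099886: catcacgtctttgtctctagagcagttttc
Vegfa A_64_P099891: ctcaccaaagccagcacataggagagatga
Vegfa A_44_P1164111: tttgtttgtccaagatccgcagacgtgtaa

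The Flt1 and Flt4 probes are shown because their calls also parted. In the order shown, 3 Flt1 probes were designed to transcript variant 2 (starts at bases 3785, 5682 and 2053), and A_43_P12015 to variant 1 (start at base 4405). They lie at chr12:7958826-7958885, chr12:7960723-7960782, chr12:7957094-7957153 and chr12:8035639-8035698. The Flt4 probes lie at chr10:35111685-35111744 and chr10:35099258-35099317, and start at bases 4036 and 3128 of 1 transcript. All 6 are on the plus strand of RGSCv3.4. The 3 variant 2 Flt1 probes have the same spacing on the transcript as on the chromosome, so they lie in an unbroken stretch. The variant 1 probe lies outside that stretch. Beyond this, the design does not say which exon or untranslated region the probes fall in.
Flt1 A_44_P151138: gtcagtgcagaggaaagaataatcaattgt
Flt1 A_44_P463262: aagatgaggaaccaaatctagtcagagaaa
Flt1 A_64_P201730: caaaaaatggccaccactcaggactactcc
Flt1 A_43_P12015: agatagagccacgtgaggaaaacactattg
Flt4 A_64_P109023: aaggtgactgctgcccgtctgctggctcca
Flt4 A_64_P140701: tttactgtcagaaagtgacatagtgaagat

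Levels are given as scaled log2 signal, the log2 of an array's background-subtracted signal minus that array's 75th percentile, so that 0 is the 75th percentile and a difference of 1 is 2-fold. Between 67.8% and 73.7% of spots were well above background. The signal at the 75th percentile ran from 197.2 to 383.2, and 0 spots were saturated. All 10 genes were well above background on 12 of 12 arrays by the probe used, and all 19 probes passed the filter on dim probes. All 4 controls shared slide 3, and slides 1 and 2 carried 2 laser and 2 bur arrays apiece. The mean log2 signal of the spike-in spots was 4.92 to 5.34 on control and 8.13 to 8.83 on treated arrays. In every comparison with control, the treatment and the slide cannot be told apart. Differences were tested with limma over all 22979 genes, with Benjamini-Hochberg adjusted p under 0.05 called a change. The median of all genes was 0.21 in laser against control and 0.23 in bur against control on the log2 scale. Other scalings put that median between 0.03 and 0.10 for the laser and between -0.0061 and 0.15 for the bur.

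Against control, 5 of the 10 genes changed after the laser and 6 after the bur. Pgf and Vegfa rose, and Angpt1 and Vegfc fell, in both. Angpt2 rose after the laser, while Vegfb and Flt1 rose after the bur, and Kdr, Flt4 and Tek passed in neither by the probe used. After the laser 3 rose and 2 fell, and after the bur 4 rose and 2 fell. These counts stand beside a background in which 49.8% of all genes changed after the laser (32.2% higher, 17.6% lower) and 51% after the bur (32.7% higher, 18.3% lower), so the share of these genes that changed was near that of all genes. The values of the groups did not overlap for 3 genes in laser against control and 5 in bur against control, where 48.7% and 46% of all genes were in that position. The median difference of the 10 genes was 0.12 after the laser and 0.25 after the bur. Of all calls against control, 64.7% after the laser and 64.2% after the bur were higher, and other scalings gave 55.4% to 58% and 51.5% to 57.1%. When the slide entered as a random effect, 3 of the 10 passed against control in either treatment. For the laser these were Pgf, Angpt1 and Angpt2 (limma adjusted p = 0.0123, 0.00688 and 0.037), while Vegfa and Vegfc did not pass (0.103 and 0.0602). For the bur they were Vegfb, Pgf and Angpt1 (limma adjusted p = 0.0453, 0.00815 and 0.0106), while Vegfa, Vegfc and Flt1 did not pass (0.0616, 0.0852 and 0.0861). Both comparisons use the same control arrays, and their values are set side by side here without a test of their likeness.

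Vegfa, the main angiogenic ligand, had scaled log2 signals of 2.18, 2.05, 2.55 and 2.74 in control, 3.16, 2.77, 2.98 and 3.11 after the bur, and 3.08, 2.43, 3.01 and 3.13 after the laser. All 4 bur arrays lay above all 4 controls, while laser replicate 2 lay within the control range. The rise was 0.63 after the bur (SE 0.20, limma adjusted p = 0.0217, 1.54-fold) and 0.53 after the laser (SE 0.20, limma adjusted p = 0.0422, 1.45-fold). Measured from the median of all genes, the rises were 0.39 and 0.33. In bulk tissue more cells that make a transcript and more transcript per cell cannot be told apart. The laser call for Vegfa was lost in 9 of 15 other ways of processing (adjusted p up to 0.285) and in 8 of 12 fits that left out 1 array, those without laser replicates 1, 3 or 4, control replicates 1, 2 or 3, or bur replicates 3 or 4 (adjusted p up to 0.117). The bur call was lost in 4 of the 15 and in 4 of the 12, without bur replicates 1 or 4 or control replicates 1 or 2 (adjusted p up to 0.0646).

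The other 2 Vegfa probes gave unlike results. The variant 3 probe A_64_P099891 went from a mean of 1.58 ± 0.45 (SD, n = 4) in control to 2.77 ± 0.31 after the bur and 2.21 ± 0.22 after the laser. It rose by 1.19 after the bur (SE 0.23, limma adjusted p = 0.00206) and by 0.63 after the laser (SE 0.23, limma adjusted p = 0.0414). Its 4 bur and 4 laser arrays all lay above the controls. The second variant 1 probe, A_44_P1164111, gave 0.42 after the bur (limma adjusted p = 0.0916) and 0.02 after the laser (limma adjusted p = 0.935), and its groups overlapped. Thus 2 of 3 Vegfa probes passed in each comparison, and the size after the bur ran from 0.42 to 1.19.

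**Figure D1:**
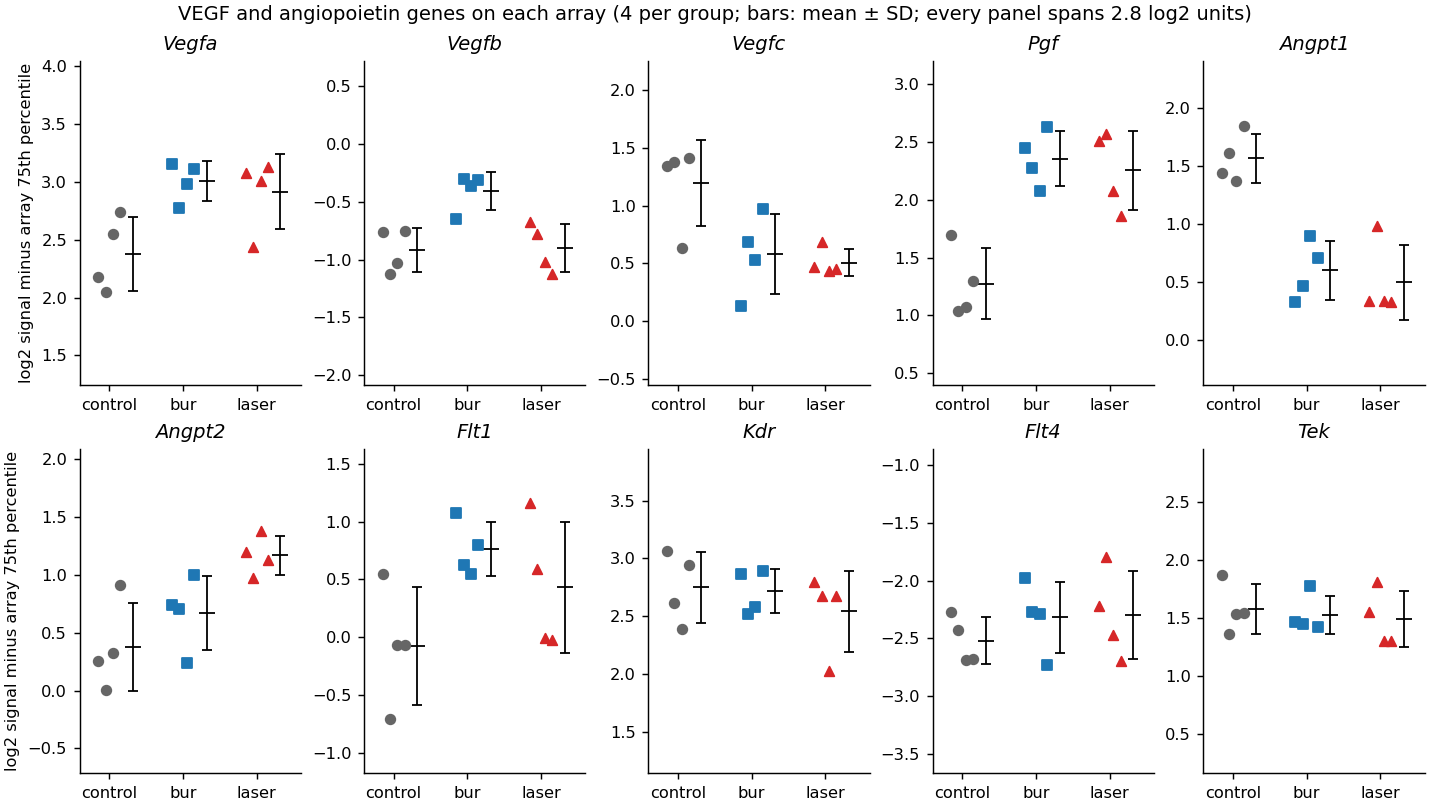
Scaled log2 signal (vertical axis, log2 signal minus the array's 75th percentile) of the 10 genes on each of the 12 arrays, by group on the horizontal axis, with the mean ± SD of 4 arrays beside the points. Angpt1 of both treated groups lies below all controls, Pgf of both lies above, and Kdr and Tek of the 3 groups overlap.

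Pgf, placental growth factor, which binds Flt1 and not Kdr, had the largest rise of the 10 genes in both comparisons by the probes used. Its scaled log2 signals were 1.70, 1.03, 1.07 and 1.30 in control, 2.44, 2.27, 2.08 and 2.63 after the bur, and 2.51, 2.57, 2.08 and 1.86 after the laser. Every treated array lay above every control array. The rise was 1.08 after the bur (SE 0.21, limma adjusted p = 0.00193, 2.12-fold) and 0.98 after the laser (SE 0.21, limma adjusted p = 0.00317, 1.97-fold). The order of the means was bur, laser, control, and bur and laser differed by less than their spread (laser minus bur -0.10, 95% interval -0.56 to 0.35). Both calls held in all 12 fits without 1 array, and of 15 other settings only the fit with the treated arrays of slide 1 alone failed to pass, in the laser comparison (0.69, limma adjusted p = 0.0643).

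Vegfb, which binds Flt1, was read by probes that start at bases 590 and 1077 of 1 transcript. The design places them on the minus strand of RGSCv3.4 at chr1:209659244-209659672, an interval longer than the probe, and chr1:209658298-209658357.
Vegfb A_44_P159040: ggagatgtccctggaagaacacagccaatg
Vegfb A_44_P1084849: atttatgggccaggccctggcggcttctag

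By the probe used, Vegfb had values of -0.76, -1.13, -1.03 and -0.75 in control, -0.65, -0.30, -0.36 and -0.31 after the bur, and -0.68, -0.78, -1.02 and -1.13 after the laser. The bur arrays lay above all control and all laser arrays, and control and laser overlapped. The difference was 0.51 after the bur (SE 0.15, limma adjusted p = 0.0144) and 0.02 after the laser (SE 0.15, limma adjusted p = 0.935). The second probe, A_44_P1084849, rose in both, by 0.92 after the bur (limma adjusted p = 0.0046) and by 0.61 after the laser (SE 0.21, limma adjusted p = 0.0323), with neither treated group overlapping control. Whether Vegfb passed after the laser thus depended on the probe.

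Vegfc, the ligand of lymphatic Flt4, had values of 1.35, 1.38, 0.64 and 1.41 in control, 0.13, 0.68, 0.53 and 0.97 after the bur, and 0.47, 0.68, 0.43 and 0.45 after the laser. Control replicate 3 lay among the treated arrays, and the other 3 controls lay above all 8. Vegfc fell by 0.69 after the laser (SE 0.21, limma adjusted p = 0.0196) and by 0.61 after the bur (SE 0.21, limma adjusted p = 0.0311). The laser call was lost without control replicate 2 or 4 (adjusted p up to 0.0542). The bur call was lost in 5 of 12 fits, without bur replicates 1 or 3 or control replicates 1, 2 or 4 (adjusted p up to 0.0831), and in 6 of 15 other settings.

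**Figure D2:**
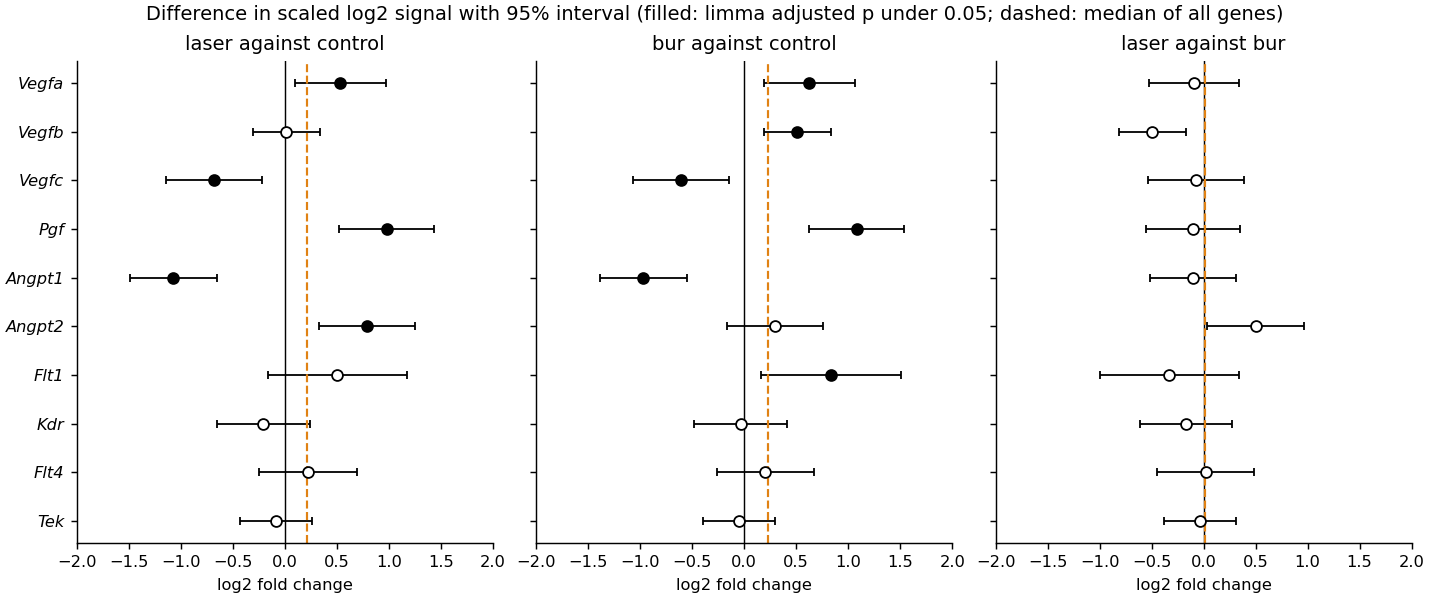
Log2 fold change with 95% interval (horizontal axis) of each of the 10 genes in the 3 comparisons, with filled points for limma adjusted p under 0.05 and the median of all genes as a dashed line. Filled points number 5, 6 and 0 from left to right.

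The angiopoietins moved in opposite directions after the laser. Angpt1, the agonist of Tek, is shown with its probes because its 3 probes gave differences of unlike size. The A_42_P783735 and A_44_P1107548 probes were designed to predicted transcript variant X3, from bases 7309 and 9688, and lie at chr7:78193836-78193895 and chr7:78191457-78191516 on the minus strand of RGSCv3.4. The A_44_P1058692 probe starts at base 961 of the curated transcript, and the design's interval for it covers only part of the probe.
Angpt1 A_42_P783735: aagccacaggcctcagtggttttcctgcat
Angpt1 A_44_P1058692: ctcgtcagacattcatcatccaagaattgg
Angpt1 A_44_P1107548: attccacggatgcctattgtatgttcgttt

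By the probe used, Angpt1 had values of 1.44, 1.61, 1.37 and 1.85 in control, 0.33, 0.46, 0.90 and 0.70 after the bur, and 0.33, 0.98, 0.33 and 0.33 after the laser. All 8 treated arrays lay below all 4 controls, and laser replicate 2 stood above the other 3 laser arrays. Angpt1 fell by 1.07 after the laser (SE 0.19, limma adjusted p = 0.00126, 2.11-fold lower) and by 0.97 after the bur (SE 0.19, limma adjusted p = 0.00216, 1.96-fold lower). The A_44_P1107548 probe fell by 0.89 after the laser and 0.76 after the bur (limma adjusted p = 0.00383 and 0.00834), without overlap. The probe to the curated transcript gave -0.43 and -0.25 (limma adjusted p = 0.154 and 0.387), and its groups overlapped. Both calls of the probe used survived leaving out any of the 12 arrays, and held under 14 of 15 alternatives. The exception was the authors' deposited table, which led to the probe of the curated transcript. In the authors' own comparisons that probe stood at -0.32 after the laser and -0.21 after the bur (authors' adjusted p = 0.238 and 0.435). The A_44_P1107548 probe passed there in both, at -0.75 and -0.71 (authors' adjusted p = 0.0025 and 0.00341).

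Angpt2, the vessel-remodelling ligand of Tek, had values of 0.26, 0.0084, 0.32 and 0.91 in control, 0.74, 0.71, 0.24 and 0.997 after the bur, and 1.19, 0.97, 1.38 and 1.13 after the laser. All 4 laser arrays lay above all 4 controls, while the bur arrays overlapped both. Angpt2 rose by 0.79 after the laser (SE 0.21, limma adjusted p = 0.0100, 1.73-fold). After the bur the difference was 0.29 (SE 0.21, limma adjusted p = 0.255). Laser minus bur was 0.50 (95% interval 0.04 to 0.96), which did not pass over all genes (limma adjusted p = 0.735), so the 2 treatments are not shown to differ in Angpt2. The laser call held in all 12 fits without 1 array. With only the laser arrays of slide 1 or of slide 2 it narrowly failed (0.88 and 0.71, limma adjusted p = 0.0608 and 0.0517).

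Within an array, the Angpt2 probe minus the Angpt1 probe gave log2 differences of -1.18, -1.60, -1.05 and -0.93 in control. After the bur they were 0.42, 0.24, -0.66 and 0.29, and after the laser 0.86, -0.0073, 1.05 and 0.80. Neither treated group overlapped control, with means of -1.19 ± 0.29 (SD, n = 4) in control, 0.07 ± 0.50 after the bur and 0.68 ± 0.47 after the laser. Probes differ in efficiency, so the difference within 1 group does not rank the transcripts, and only its shift between groups carries information. The size of that shift rests on the probe used for Angpt1. The probe to the curated transcript fell less, with -0.43 after the laser and -0.25 after the bur. Flt1 minus Kdr ran from -3.32 to -2.46 in control, from -2.09 to -1.79 after the bur and from -2.70 to -1.63 after the laser. The bur group lay above all controls, and laser replicate 4 lay within the control range. This shift too depends on the probe, as the other Flt1 probes gave -0.26 to 0.79 after the bur.

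**Figure D3:**
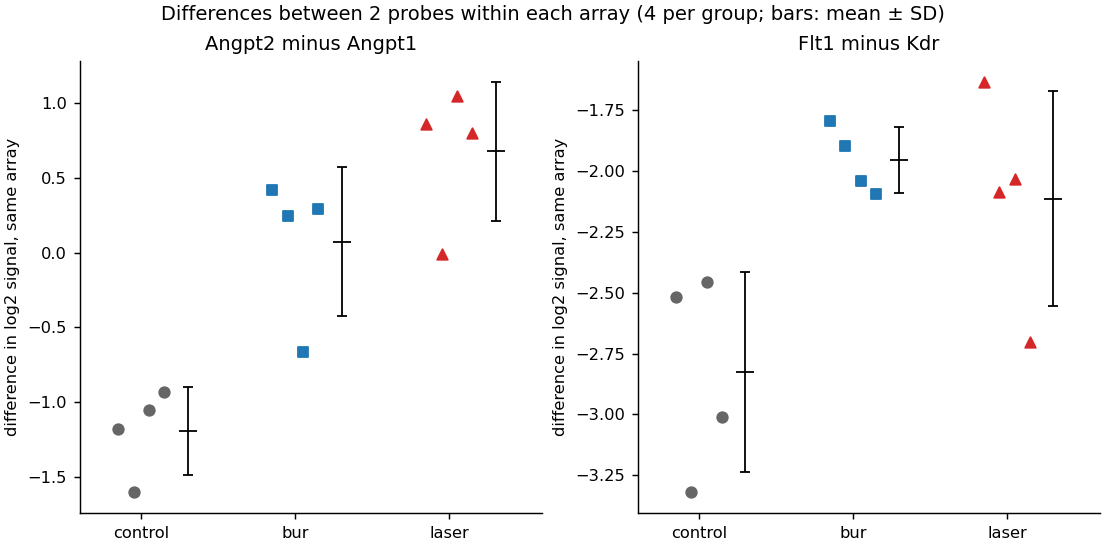
Difference in log2 signal between 2 probes on the same array (vertical axis), Angpt2 minus Angpt1 and Flt1 minus Kdr, for 4 arrays in each group with mean ± SD. Angpt2 minus Angpt1 is below -0.93 in every control and above -0.67 on every treated array.

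Among the receptors, Flt1 varied most between control arrays and between laser arrays. Its values were 0.55, -0.71, -0.066 and -0.07 in control, 1.07, 0.63, 0.55 and 0.80 after the bur, and 1.16, 0.59, -0.0048 and -0.026 after the laser. The bur arrays lay above the controls by the narrowest of margins, with control replicate 1 at 0.5451 and bur replicate 3 at 0.5457, and laser replicates 3 and 4 lay among the controls. Flt1 rose by 0.84 after the bur (SE 0.30, limma adjusted p = 0.0398, 1.78-fold), and the laser difference was 0.51 (SE 0.30, limma adjusted p = 0.185). The bur call was lost in 8 of 15 other settings and in 6 of 12 fits without 1 array, those without bur replicates 1, 2 or 4 or control replicates 2, 3 or 4 (adjusted p up to 0.113). The probe A_64_P201730 rose in both, by 0.79 after the bur (limma adjusted p = 0.00805) and by 0.65 after the laser (limma adjusted p = 0.0204), with no overlap with control. The probe A_44_P463262, at the far end of the same transcript, gave -0.26 and 0.03 (limma adjusted p = 0.434 and 0.924). The variant 1 probe gave 0.32 and 0.51 (limma adjusted p = 0.334 and 0.138) and was well above background on only 1 of 4 control arrays. The probe used was designed to variant 2, so its rise after the bur is not shown for variant 1.

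Kdr, the main signalling receptor, had values of 3.06, 2.61, 2.39 and 2.94 in control, 2.86, 2.52, 2.58 and 2.89 after the bur, and 2.79, 2.68, 2.03 and 2.68 after the laser. The 3 groups overlapped. Differences were -0.04 after the bur (95% interval -0.48 to 0.41, limma adjusted p = 0.888) and -0.21 after the laser (95% interval -0.65 to 0.24, limma adjusted p = 0.408). The intervals allow a fall of up to 0.65 on the log2 scale after the laser. In the authors' deposited table of laser against control, Kdr was lower by the same probe with a log2 fold change of -0.48 (adjusted p = 0.0125). Here Kdr passed in 0 of 15 other settings in that comparison (smallest limma adjusted p = 0.0721). Those settings include a fit of the authors' deposited normalized values.

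Tek, the angiopoietin receptor, had values of 1.87, 1.36, 1.53 and 1.54 in control, 1.46, 1.45, 1.78 and 1.42 after the bur, and 1.55, 1.81, 1.30 and 1.30 after the laser. The groups overlapped throughout. The differences were -0.05 after the bur (95% interval -0.40 to 0.30) and -0.09 after the laser (95% interval -0.43 to 0.26), with limma adjusted p = 0.801 and 0.662. Tek thus had the narrowest intervals of the 4 receptors.

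Flt4, the receptor for Vegfc, had values of -2.28, -2.43, -2.69 and -2.68 in control, -1.98, -2.27, -2.29 and -2.73 after the bur, and -2.22, -1.80, -2.47 and -2.70 after the laser. The groups overlapped, with differences of 0.20 (limma adjusted p = 0.439) and 0.22 (limma adjusted p = 0.401). The second, dimmer probe A_64_P140701 went from -4.14 ± 0.38 (SD, n = 4) in control to -2.99 ± 0.32 after the bur and -2.97 ± 0.50 after the laser. Neither treated group overlapped control by that probe, with rises of 1.15 and 1.17 (limma adjusted p = 0.00556 and 0.00527). The mean of both probes was 0.68 after the bur and 0.70 after the laser (limma adjusted p = 0.0267 and 0.0245). That mean contains the dimmer probe, so it is not separate evidence for a rise.

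Counted by probe, 10 of the 19 probes passed in laser against control (7 higher, 3 lower) and 11 of 19 in bur against control (8 higher, 3 lower). Over all kept probes, 48.8% and 50.3% passed. Of the 5 genes with several probes, 0 had every probe passing after the laser and 1, Vegfb, after the bur, and 0 had probes passing in both directions. The authors' deposited tables list 13 probes of these genes. In them 6 probes passed for laser against control (3 higher, 3 lower), 6 for bur against control (4 higher, 2 lower) and 0 for laser against bur, by the authors' adjusted p. Pgf stood at 0.91 after the laser and 1.02 after the bur in the authors' deposited tables, and Angpt2 at 0.79 and 0.33. Vegfa did not pass there after the laser, at 0.23 by the probe used and 0.45 by A_64_P099891 (authors' adjusted p = 0.206 and 0.0563). After the bur both Vegfa probes passed, at 0.42 and 1.06 (authors' adjusted p = 0.0356 and 0.0014). Flt1 did not pass after the bur by either listed probe, neither of them the probe used (authors' adjusted p = 0.0771 and 0.912).

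**Figure D4:**
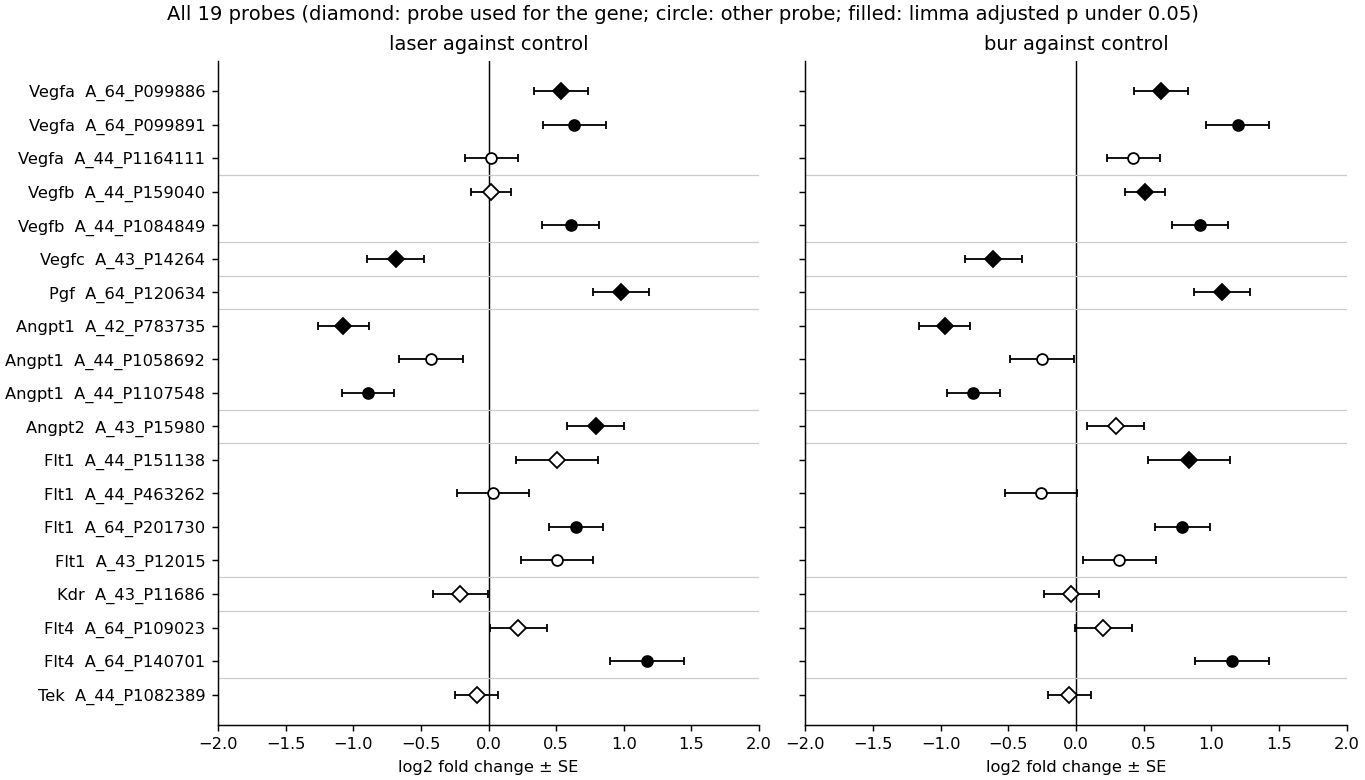
Log2 fold change ± SE (horizontal axis) of all 19 probes against control, with diamonds for the probe used per gene, circles for other probes and filled symbols for limma adjusted p under 0.05. No gene has filled symbols on both sides of 0, and Flt4 passes by its second probe only.

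Laser and bur did not differ by limma in any of the 10 genes. All genes together gave 0.00435% of calls (0.00435% higher, 0% lower), and the fit of all probes 0.00332%, so this comparison detected almost nothing anywhere. At an unadjusted limma p under 0.05 there were 1498 genes, Vegfb and Angpt2 among them. Vegfb had the only groups that did not overlap, with all laser arrays below all bur arrays, where 3.57% of all genes were separated like that. Laser minus bur for Vegfb was -0.50 (95% interval -0.82 to -0.17, limma adjusted p = 0.563), -0.74 within slide 1 and -0.25 within slide 2. By the second Vegfb probe the difference was -0.31 (limma adjusted p = 0.812). For Angpt2 it was 0.64 within slide 1 and 0.36 within slide 2. The widest interval was that of Flt1, whose lower bound was a log2 difference of -1.0 and upper bound 0.34.

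Promoter sequence was found for 7 of the 10 genes in the RefSeq table of GRCr8, as the 250 bases before the start site. They were searched on both strands for the core letters of the hypoxia response element, the site bound by hypoxia-inducible factors, as ACGTG or GCGTG. Of 33469 promoters, 16.6% held the first, 25.9% the second and 36.7% either. Among these genes ACGTG was in none, and GCGTG was in Vegfb, Pgf, Flt1 and Kdr. Pgf, which rose in both comparisons, and Kdr, which passed in neither, are shown with the matches in capitals, read in the direction of the gene. They lie at chr6:110557748-110557997 on the minus strand and at chr14:32571813-32572062 on the plus strand of GRCr8.
Pgf promoter: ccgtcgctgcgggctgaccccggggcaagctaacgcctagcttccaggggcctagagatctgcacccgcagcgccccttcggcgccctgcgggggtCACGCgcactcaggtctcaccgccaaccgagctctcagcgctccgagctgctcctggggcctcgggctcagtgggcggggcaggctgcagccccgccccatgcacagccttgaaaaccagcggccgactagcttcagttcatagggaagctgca
Kdr promoter: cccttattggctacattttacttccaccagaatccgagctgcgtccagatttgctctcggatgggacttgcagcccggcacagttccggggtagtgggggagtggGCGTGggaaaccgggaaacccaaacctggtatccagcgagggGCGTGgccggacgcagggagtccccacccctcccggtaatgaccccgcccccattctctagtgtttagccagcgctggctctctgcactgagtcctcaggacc
Pgf held 1 match, on the opposite strand at position -154 from the start site, and Kdr held 2, at -145 and -103. Both Vegfa windows in the table had none within these bases. A match is a description of the letters, not of binding.

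Genes around the pathway were followed in lists of co-receptors and modulators, oxygen sensing, VEGF-responsive genes and vessel cells. The counts of every list stand beside the 49.8% of all genes that changed after the laser (32.2% higher, 17.6% lower). After the bur that share was 51% (32.7% higher, 18.3% lower). The median of all genes was 0.21 after the laser and 0.23 after the bur. Of 16 measured co-receptors and modulators, 2 rose and 4 fell after the laser, and 7 rose and 2 fell after the bur (medians 0.13 and 0.25). Nrp2, a co-receptor for Vegfc, rose by 1.61 after the laser and 1.13 after the bur (limma adjusted p = 0.000181 and 0.000941), by all 3 of its probes. Angptl4, an angiopoietin-like secreted regulator of lipoprotein lipase, rose by 1.46 and 1.62 (limma adjusted p = 0.000341 and 0.000271). Tie1, the orphan partner of Tek, fell after both, with differences of -1.93 for the laser and -1.95 for the bur (limma adjusted p = 0.000565 and 0.000575). Its probe was well above background on only 3 of 4 arrays in each treated group, so the size of the fall is uncertain. The bur call held in all 26 other fits that tested Tie1, with a smallest difference of -0.83. Vash1, an endothelial inhibitor of angiogenesis, fell after both, with differences of -1.49 for the laser and -1.197 for the bur (limma adjusted p = 0.000339 and 0.00108) by 1 of 2 probes. Over 27 other fits (15 settings and 12 without 1 array), 2 to 4 rose and 2 to 4 fell after the laser, and 4 to 7 rose and 1 to 3 fell after the bur.

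Of 16 oxygen-sensing and hypoxia genes, 6 rose and 2 fell after the laser, and 6 rose and 3 fell after the bur (medians 0.36 and 0.49). The other 8 and 7 did not pass, so the share that changed was near that of all genes. Hif1a, the oxygen-regulated subunit of hypoxia-inducible factor, rose by 0.84 after the laser and 1.08 after the bur (limma adjusted p = 0.00199 and 0.000575) by 1 of 2 probes. With the authors' deposited normalized table Hif1a passed in neither comparison, and with the mean of its probes it did not pass after the bur, with differences down to 0.37 after the laser and 0.29 after the bur. Vhl, which targets that subunit for degradation, rose by 0.94 and 0.78 (limma adjusted p = 0.00024 and 0.000591). Hif3a rose by 1.51 and 1.54 (limma adjusted p = 0.00033 and 0.000356), but its probe was well above background on 1 of 4 control arrays, and with normexp background correction the differences shrank to 0.14 and 0.13 and did not pass. Over the 27 other fits, 5 to 9 of the list rose and 1 to 3 fell after the laser, and 4 to 9 rose and 0 to 3 fell after the bur.

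Of 14 VEGF-responsive and tip cell genes, 4 rose and 2 fell after the laser, and 5 rose and 1 fell after the bur (medians 0.50 and 0.56). The number that rose depended on the processing, from 1 to 6 after the laser and from 2 to 7 after the bur, with the lowest counts under normexp. Unc5b, a netrin receptor of tip cells, rose by 2.15 after the laser and 1.49 after the bur (limma adjusted p = 0.000143 and 0.000769) by both of its probes. Egr3, an immediate-early transcription factor induced by VEGF, was not well above background on any control array by the probe used. Against a raised control level its signal was 2.74-fold higher after the laser and 2.17-fold higher after the bur. Hey2, a Notch target of arterial endothelium, was likewise well above background on no control array. It was 1.68-fold and 1.26-fold higher against that level. The raised level was the dimmest signal of each control array that was well above background, or the probe's own where that was higher. These folds carry no test of their own. The limma adjusted p were 0.000149 and 0.00029 for Egr3, by 1 of 2 probes, and 0.000149 and 0.000364 for Hey2. They belong to differences without the raised level, of 2.77 and 2.43 for Egr3 and 2.39 and 1.98 for Hey2. With normexp background correction neither gene passed, and Hey2 after the bur turned to -0.051. Over the other fits the Egr3 differences went down to 0.29 and 0.13.

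**Figure D5:**
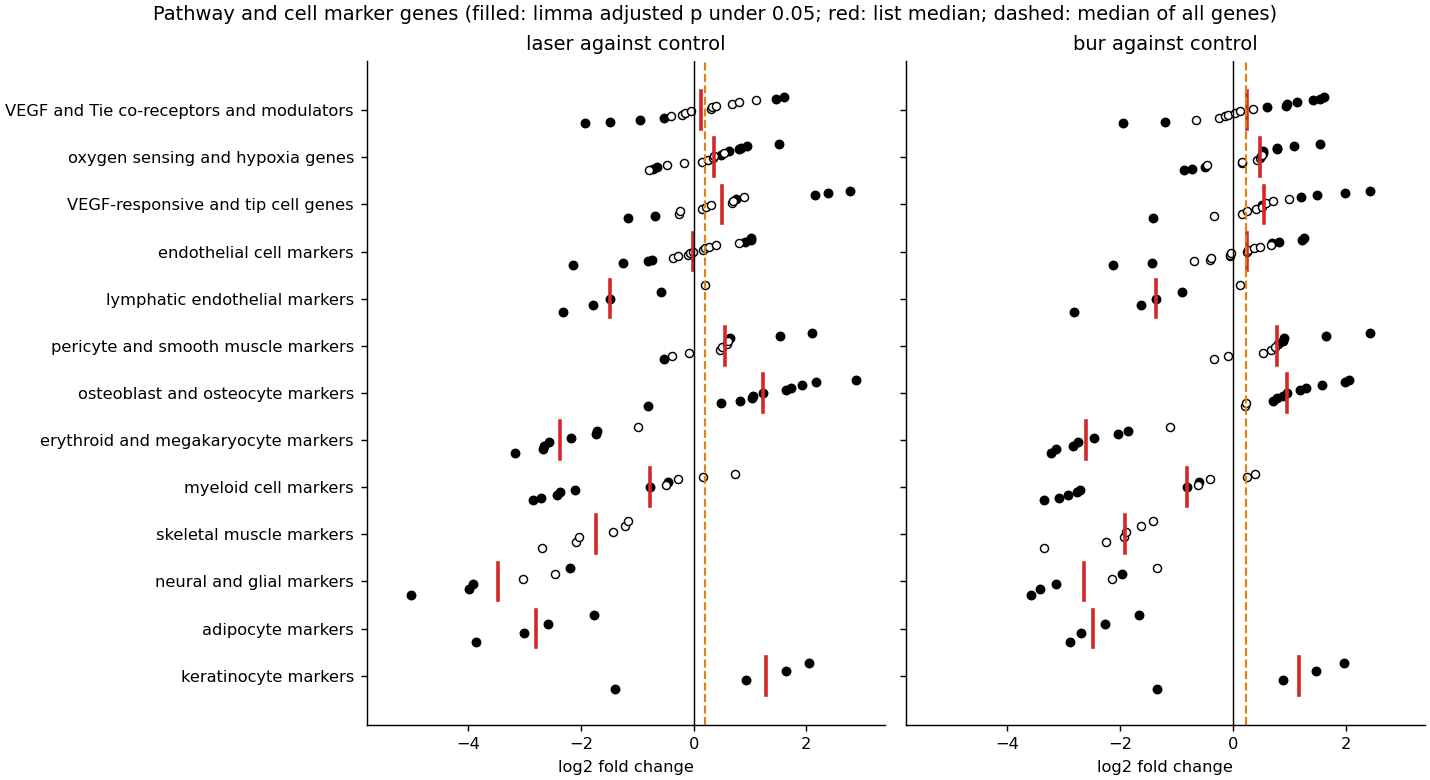
Log2 fold change (horizontal axis) of every measured gene of 13 lists against control, with filled points for limma adjusted p under 0.05, red bars for list medians and a dashed line for the median of all genes. Osteoblast and osteocyte markers lie mostly to the right, and erythroid, myeloid and adipocyte markers to the left.

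Cell composition markers were followed in the same samples, and their counts stand beside the same shares of all genes. Of 17 endothelial markers 3 rose and 4 fell after the laser, and 4 rose and 2 fell after the bur, with medians of -0.0082 and 0.25. The mean scaled log2 signal of that list ran from 0.33 to 0.78 in control, 0.50 to 0.66 after the bur and 0.21 to 0.80 after the laser, so the groups overlapped. Icam2, an endothelial adhesion molecule, fell by 1.24 after the laser and 1.43 after the bur, with limma adjusted p = 0.000401 and 0.000266. Ecscr rose by 1.01 and 1.26 (limma adjusted p = 0.0129 and 0.00437) by 1 of 2 probes, and Plvap by 0.90 and 1.23 (limma adjusted p = 0.0304 and 0.00739). Stab2, a scavenger receptor of sinusoidal endothelium, fell by 2.14 after the laser and 2.12 after the bur (limma adjusted p = 0.00888 and 0.00913). Vwf rose by 1.02 after the laser and 0.82 after the bur (limma adjusted p = 0.00573 and 0.0158), but its 2 probes passed in opposite directions. The Vwf difference after the laser turned negative with the mean of its probes and with the authors' deposited normalized table. Over the other fits, 1 to 5 endothelial markers rose and 2 to 5 fell after the laser, and 2 to 6 rose and 2 to 4 fell after the bur.

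Of the 5 lymphatic endothelial markers 4 fell in each comparison, with medians of -1.48 and -1.36. The count that fell ran from 1 to 4 after the laser, lowest without control replicate 2 and 2 with slide as a block, and from 2 to 4 after the bur, lowest with the treated arrays of slide 2 alone. Reln fell by 1.48 after the laser and 1.36 after the bur (limma adjusted p = 0.00228 and 0.00352), Mmrn1 by 2.32 and 2.83 (limma adjusted p = 0.0199 and 0.00786), Prox1, the master regulator of lymphatic identity, by 0.58 and 0.90 (limma adjusted p = 0.0469 and 0.00672) and Ccl21 by 1.79 and 1.63 (limma adjusted p = 0.0312 and 0.0436). The remaining marker, Lyve1, did not pass, at 0.21 after the laser and 0.13 after the bur (limma adjusted p = 0.629 and 0.769). The Ccl21 probe was well above background on 4 control arrays but on only 1 of 4 arrays in each treated group. The laser call of Ccl21 held in 18 of 26 other fits and was lost with slide as a block. Prox1 passed by 1 of 2 probes, and the mean of both turned positive (0.23 after the bur). The list mean ran from 0.79 to 1.35 in control, from -0.64 to 0.18 after the bur and from -0.63 to 0.27 after the laser, with no overlap with control. Mmrn1 is also known from platelets, and the cells that gave the signals of this list were not identified. The Prox1 probe used had a mean of 7.01 in control, where the other markers of the list lay between -3.60 and 1.25. Vegfc fell with this list, and the part of the list in the fall of Vegfc was not tested.

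Of 10 pericyte and smooth muscle markers 3 rose and 1 fell after the laser, and 5 rose and 0 fell after the bur. Cspg4, a proteoglycan of pericytes, rose by 1.54 and 1.65 (limma adjusted p = 0.000514 and 0.000401), Acta2 by 2.10 and 2.43 (limma adjusted p = 0.00841 and 0.00408), and Pdgfrb by 0.90 after the bur (limma adjusted p = 0.013). Abcc9 fell by 0.52 after the laser (limma adjusted p = 0.0206) by 1 of 2 probes, a call that held in 21 of 27 other fits and was lost with slide as a block. The number of these markers that rose ran from 1 to 5 after the laser and from 3 to 6 after the bur. Angpt1, a product of perivascular cells among others, fell in the same samples, as did 7 of 8 erythroid and megakaryocyte markers in each comparison. The part of any cell type in the fall of Angpt1 was not tested.

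Markers of bone cells, blood and neighbouring tissue shifted more widely. Of 11 osteoblast and osteocyte markers 10 rose and 1 fell after the laser and 9 rose after the bur, with list means of 2.67 to 3.32 in control against 3.94 to 4.44 after the bur and 4.14 to 4.48 after the laser. Of 8 erythroid and megakaryocyte markers 7 fell in each comparison (list mean 2.41 to 3.12 in control, -0.24 to 1.53 after the bur, -1.23 to 1.26 after the laser), and of 11 myeloid markers 7 fell in each. All 4 measured adipocyte markers and 4 of 6 neural and glial markers fell in each, 0 of 6 skeletal muscle markers passed, and 3 of 4 keratinocyte markers rose and 1 fell. Examples are Runx2 at 2.18 after the laser and 1.99 after the bur, Itga2b at -2.66 and -3.22, Mmp8 at -2.11 and -2.93, Retn at -1.77 and -1.66, Gfap at -2.19 and -1.97 and Krt10 at 0.92 and 0.89, all passing by limma. The part of these shifts in the differences of the 10 genes was not tested. Over the other fits, the number that fell ran from 6 to 8 of the erythroid markers in each comparison. It ran from 2 to 5 of the adipocyte markers and from 0 to 6 (laser) or 0 to 5 (bur) of the neural markers. The lowest laser counts of adipocyte and neural markers came from the filter that kept only probes well above background on every array. It left 2 adipocyte markers, of which 2 fell, and 1 neural marker, of which 0 fell. The count of 5 adipocyte markers after the laser came without the filter on dim probes, where 5 were measured. Gad1, Gfap, Lep and Cidec passed after the laser in all 26 other fits that tested them, as did Gfap after the bur. Osteoblast and osteocyte markers that rose numbered 7 to 10 after the laser and 8 to 9 after the bur, and keratinocyte markers 1 to 3. Laser against bur gave 0 calls in every list.

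Across the 12 arrays, the genes whose pattern was most like a member's are given as a description, since the arrays share 3 groups and slides. Among 11728 genes with an official symbol, Vegfa was closest to Inhbb (r = 0.947), Vmp1 (0.947) and Fasn (0.933). Angpt2 was closest to Stx5 (r = 0.940), Bod1 (0.925) and Dnajb9 (0.923). The Kdr pattern was closest to Cd300lg (r = 0.832), Osr1 (0.770) and Adap2 (0.756), and that of Tek to Npr1 (r = 0.889), Clec14a (0.843), an endothelial lectin, and Rasip1 (0.752), an endothelial regulator of vessel tube formation. With group means removed, the r was 0.892, 0.883 and 0.843 for Vegfa, 0.855, 0.956 and 0.816 for Angpt2, 0.810, 0.741 and 0.737 for Kdr, and 0.975, 0.916 and 0.774 for Tek. Among the members themselves, Pgf and Flt1 varied together most within groups (r = 0.841 over all 12 arrays and 0.826 with group means removed). Vegfc and Angpt1 had r = 0.842, which became 0.556 with group means removed, and Vegfa and Angpt1 had -0.761, which became -0.353.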

How the data were processed

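The authors deposited a spot intensity for every array, read by Agilent Feature Extraction 11.0.1.1 according to the submitters' processing notes. Its processed signal is background-subtracted, per the file headers. The authors also deposited log2 quantile-normalized values and, for each comparison, a log2 fold change and raw and adjusted p-values of each probe. The sources used here do not give the model behind them.

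Here the processed signal was taken to log2, control spots and outlier-marked spots were left out, spots of a probe were averaged, and the 75th percentile of the array was taken off. Probes well above background on at least 4 of 12 arrays were kept (30121 of 45598). Names came from RefSeq by accession for 46.5% of probes and otherwise from the files. All 12 arrays entered 1 linear model of group means (limma 3.58.1, lmFit then eBayes, under R 4.3.3, two-sided tests, Benjamini-Hochberg over all genes, threshold 0.05). Scripts were tested on simulated data. Since arrays were scaled to each other, a shift common to most genes would not be seen.

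The members and the 13 lists were chosen with earlier results of these data known. All members are named. From each list and comparison up to 3 passing genes with the smallest adjusted p are named, or in a list with none the gene with the smallest p, and some that the rule picked are given as counts only. Genes named for likeness have the highest r. Of 133 listed symbols 128 were tested. Samples were grouped by title. The alternatives were other normalizations and background correction, the deposited table, other filters, the mean of probes, 2 groups in the fit, replicate or slide as a block, 1 treated slide, an intensity trend, array weights and leaving out each array. Array number limits the precision.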

Additional observations from a re-analysis of the deposited data

Results flagged for a closer look

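In 5 of 30 groups of 4 arrays, 1 array stood apart from the other 3, by a gap to its neighbour that was a larger part of the group's range than Dixon's 95% critical value for 4 samples. Chance gives about 1 such group in 20. Vegfc had its lowest control array, replicate 3, at 0.64 against 1.35 to 1.41 (0.911 of the range) and its highest laser array, replicate 2, at 0.68 against 0.43 to 0.47 (0.861). Angpt1 had laser replicate 2 at 0.98 while the other 3 lay between 0.326 and 0.335 (0.986). Kdr had laser replicate 3 at 2.03 against 2.68 to 2.79 (0.848). Tek had bur replicate 3 at 1.78 against 1.42 to 1.46 (0.884).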

How the results depend on the processing

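Of 10 members, 5, 6 and 0 passed in laser against control, bur against control and laser against bur. With slide as a block 3 passed in each comparison with control, Pgf and Angpt1 in both, Angpt2 in the laser and Vegfb in the bur comparison. With the treated arrays of slide 1 only, 2 passed for the laser. With those of slide 2 only, 2 passed for the laser and 2 for the bur. Median centring left 3 for the bur. Without 1 array the counts ran from 3 to 5 for the laser, from 3 to 6 for the bur and from 0 to 0 for laser against bur. The lowest counts came without control replicate 2 for the laser and without control replicate 2 or bur replicate 1 for the bur. In the other settings the counts differed by no more than 1.5 times.

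Values that passed kept their sign in all 15 settings and in all fits without 1 array. Values that turned sign had not passed in the first place. In laser against control Vegfb gave -0.093 with the 75th percentile of the probes detected on every array, -0.091 with median centring, -0.012 with normexp, -0.16 with the arrays of slide 1 and -0.0019 with array weights. Flt4 gave -0.0095 with normexp and -0.066 with slide 1, and Tek 0.10 with slide 2. In bur against control Flt4 gave -0.057 and Tek 0.039 with normexp, and Tek 0.023 with slide 1. In laser against bur Flt4 gave -0.0061 with the percentile of detected probes, Tek 0.036 with median centring and Flt1 0.0024 with the mean of probes. With slide 1 only, Vegfa gave 0.024 and Flt4 -0.077. With slide 2 only, Vegfc gave 0.17, Pgf 0.18, Angpt1 0.26, Flt1 0.029, Kdr 0.043 and Tek 0.22. The cause was not tested.

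Without 1 array, laser against control ran from -0.059 to 0.091 for Vegfb and from -0.19 to 0.012 for Tek, and bur against control from -0.16 to 0.068 for Kdr and from -0.13 to 0.049 for Tek. Laser against bur ran from -0.17 to 0.068 for Vegfa, from -0.22 to 0.058 for Vegfc, from -0.21 to 0.029 for Pgf, from -0.25 to 0.00059 for Kdr, from -0.15 to 0.15 for Flt4 and from -0.14 to 0.046 for Tek.

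The labels give no animal number, and the replicate numbers were not taken as pairing. The deviations of same-numbered samples correlated under 0.1 for at least 1 pair in every comparison, which does not exclude pairing. The values were 0.388, 0.085, 0.137 and 0.105 for laser and control, 0.264, 0.096, 0.097 and 0.197 for bur and control, and 0.577, 0.046, 0.529 and 0.403 for laser and bur, whose same-numbered arrays also share a slide. With the replicate block 5, 6 and 0 members passed, against 12545, 12915 and 1 of all genes, which were 11446, 11728 and 1 without it. Laser replicate 4 correlated best with control replicate 3, bur replicate 3 with control replicate 2 and laser replicate 2 with bur replicate 1. Each of the other arrays compared in that way correlated best with its own number, and all same-numbered correlations were positive. The samples may thus be paired, and the main fit leaves this out. For all genes between laser and bur, normexp gave 5, slide as a block 10 and an intensity trend 2 calls in place of 1, and the mean of probes, the 2-group fit and either treated slide alone gave 0.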
